A study of Rattus norvegicus with 23 samples.

Results

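The genes examined were the translation initiation factors eIF1 to eIF6 and the elongation factors eEF1 and eEF2, in RNA of the CA3 field of the hippocampus. They were taken as every probe set whose single platform gene symbol begins with Eif1 to Eif6 or with Eef1 or Eef2. This gave 93 of the 31042 probe sets that are not controls, and they stand for 60 genes. Of these, 73 probe sets of 55 genes were bright enough to be tested, which took 6 or more arrays at a log2 value of 4 or higher, among 14647 tested probe sets in all. CA3 was dissected from 23 male Long-Evans rats, an outbred strain, and each animal was measured on 1 Affymetrix Rat Genome 230 2.0 array. The animals were untreated. Young rats were 6 months old (n = 9). Aged rats were 24 to 26 months old and were divided by a learning index from the Morris water maze, a test of memory for the site of a platform hidden under water. Aged unimpaired rats had scores like those of young rats (n = 6), and aged impaired rats had poorer ones (n = 8). The groups put the question of which transcripts differ with age and which differ between aged rats that learn well and aged rats that do not.

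Translation begins when eIF2, carrying GTP and the initiator tRNA, joins the small ribosomal subunit together with eIF1, eIF1A, eIF3 and eIF5. The cap-binding complex eIF4F, made of eIF4E, eIF4G and the helicase eIF4A, brings the mRNA, and the complex scans to a start codon. After each round eIF2 is left with GDP, and the exchange factor eIF2B restores GTP. Stress kinases that phosphorylate the alpha subunit of eIF2 turn it into an inhibitor of eIF2B, which lowers general protein synthesis, and in the hippocampus this step and the eIF4E-binding proteins are known as control points of long-lasting synaptic plasticity and memory. Elongation then depends on eEF1A, which delivers aminoacyl-tRNAs, and on eEF2, which moves the ribosome along the mRNA and is inhibited by its kinase eEF2K.

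Few probe sets of the translation factors passed the test in any comparison. In aged impaired against young rats, 3 of the 73 probe sets passed the test (limma, adjusted p at most 0.05 over all tested probe sets), and all 3 were lower in the impaired rats: Eif2b5, Eif2b4 and Eif1b. That is 4.11% of the members, beside 9.76% of all tested probe sets called in this comparison (5.88% lower and 3.88% higher). In aged unimpaired against young rats 2 members passed, Eif2b4 lower and 1 probe set of Eif1a higher, which is 2.74% beside 2.06% of all (1.37% higher and 0.696% lower). Between the aged groups 1 member passed, another probe set of Eif1a that was lower in the impaired rats, which is 1.37% beside 0.778% of all (0.676% higher and 0.102% lower). Averaged over both aged groups against young, 2 passed, Eif2b4 and Eif2b5, both lower, which is 2.74% beside 6.9% of all (3.34% higher and 3.56% lower).

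No member differed by more than 0.5 on the log2 scale in any of the 4 comparisons, where 175 to 322 of the 14647 tested probe sets did. Between aged impaired and young rats 64 of the 73 members differed by less than 0.2, beside 12231 of the 14647. The median size of a difference, whatever its sign, was 0.0564 over the members and 0.0823 over all in that comparison, and 0.0765 and 0.0696 in aged unimpaired against young. The median log2 difference of the members was -0.01 in aged impaired against young, where that of all tested probe sets was -0.017. It was 0.0092 against -0.0018 in aged unimpaired against young, and -0.0244 against -0.0195 between the aged groups. Unadjusted p-values of at most 0.05 were found for 12, 17 and 14 members in these 3 comparisons. That is 16.4%, 23.3% and 19.2% of them, beside 26.3%, 16.8% and 15.2% of all tested probe sets. Counted as genes by brightest probe set, the shares were 20%, 21.8% and 10.9% of the 55 genes. Beside them stand 26.7%, 16% and 11.5% of all genes. The counts at an unadjusted p given by role below are counts of genes. The comparisons of each aged group with young share the same young animals, so their values stand side by side and are not independent. In tissue RNA, fewer cells of a type and less RNA per cell cannot be told apart.

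**Figure D1:**
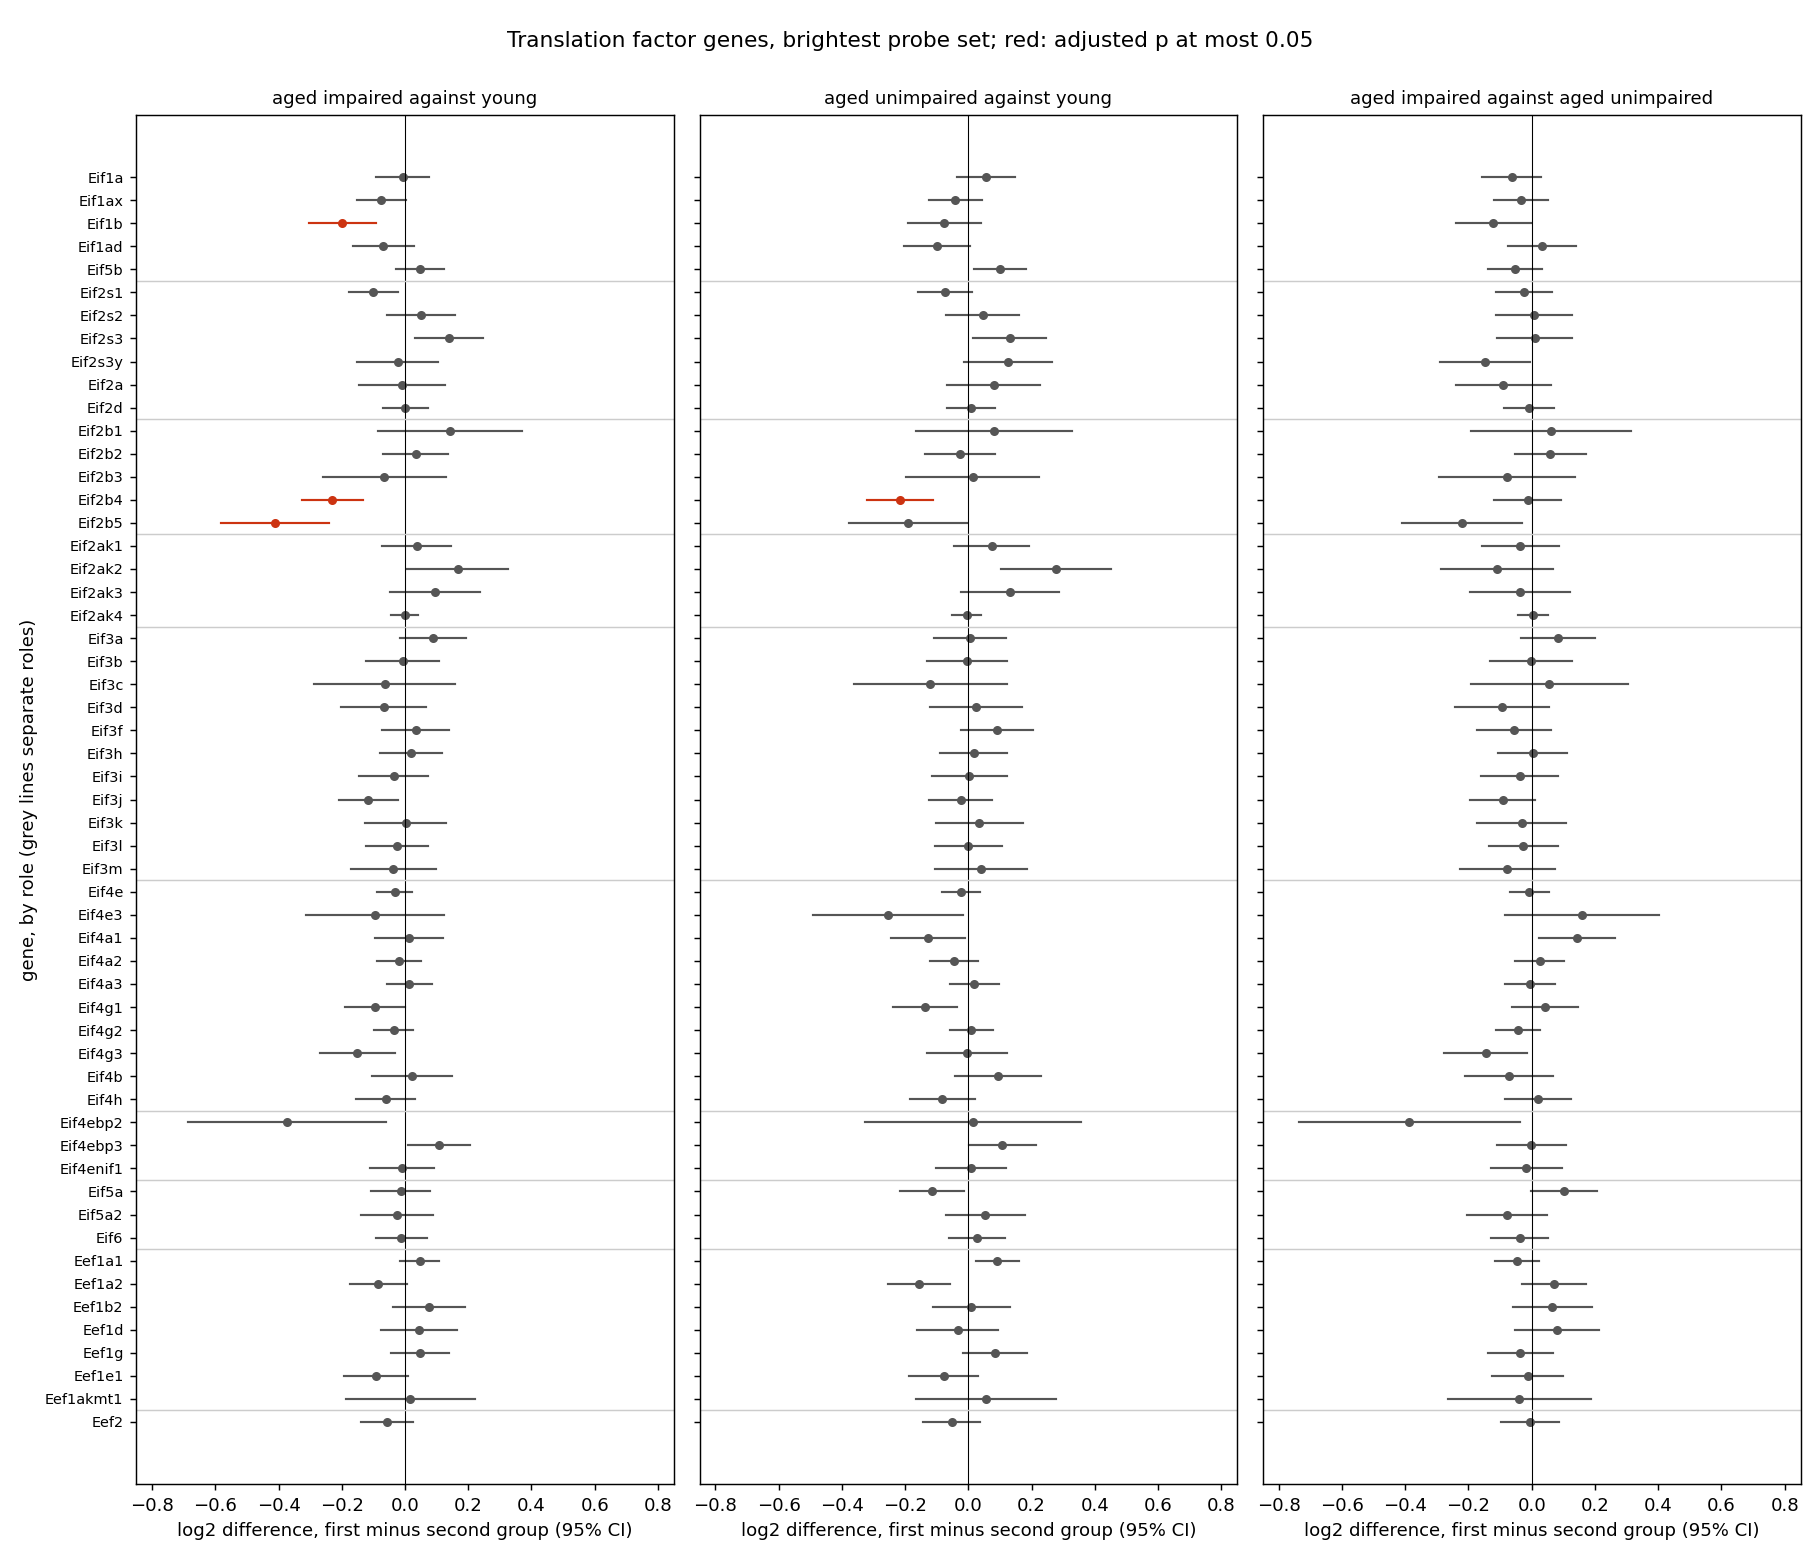
Log2 differences with 95% confidence intervals (horizontal axis) for the brightest probe set of each of the 55 genes (rows, ordered by role), for impaired against young, unimpaired against young and impaired against unimpaired rats, from left to right. Most points lie within 0.2 of zero; the points in red passed the test and are Eif1b, Eif2b4 and Eif2b5 in the first panel and Eif2b4 in the second.

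Beside these values stand the tissue markers. All 6 listed CA3 neuron markers were above the filter, and 3 of them fell and 1 rose in aged impaired against young rats. Their summed linear level ranged from 13200 to 15800 in young, 11600 to 13600 in aged unimpaired and 9700 to 14200 in aged impaired rats. Microglial markers rose in both aged groups, 4 of the 4 tested of 6 listed, with a summed level of 1060 to 1380 in young, 1630 to 2100 in aged unimpaired and 1600 to 2400 in aged impaired rats, while Cx3cr1 and Itgam had means below a log2 value of 4. Of 6 astrocyte markers 1 rose in each aged group against young. None of the 4 CA1 neuron markers was called, although their summed level ran from 340 to 1950 within the young group alone. A gap between control rows of the array, taken as the GAPDH 5' row less the GAPDH M row by their names, was 2.08 to 2.46 in young, 2.12 to 2.39 in aged unimpaired and 2.02 to 2.27 in aged impaired rats. The part of these markers in the values of the translation factors was not tested.

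The exchange factor eIF2B held the members with the lowest adjusted p in aged impaired against young rats. Eif2b5 codes for its catalytic epsilon subunit and Eif2b4 for its delta subunit, which belongs to the regulatory part that senses phosphorylated eIF2. Of the 5 subunit genes, these 2 fell in aged impaired against young and in both aged groups averaged against young. Over all genes, by brightest probe set, 10.2% and 7.53% were called in these 2 comparisons in either direction. Whether the share among the 5 subunit genes differs from these was not tested. Eif2b1, Eif2b2 and Eif2b3, the alpha, beta and gamma subunits, did not pass in any comparison. Mutations of any of the subunit genes are known to cause vanishing white matter disease in humans.

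Eif2b5 (probe set 1387940_at) had a lowest, median and highest log2 value of 6.00, 6.22 and 6.49 in young rats, of 5.80, 6.00 and 6.42 in aged unimpaired rats, and of 5.66, 5.80 and 6.00 in aged impaired rats. Of the 8 impaired animals 7 lay below every young animal, and the highest impaired animal lay level with the lowest young one, so the groups met at their edge. The group means were 6.23 ± 0.19 (SD, n = 9) in young, 6.04 ± 0.20 (n = 6) in unimpaired and 5.82 ± 0.13 (n = 8) in impaired rats. The log2 difference of impaired from young was -0.41 (SE 0.08, 95% interval -0.58 to -0.24), which is 1.33-fold lower, with a limma adjusted p of 0.0041. Unimpaired rats lay between the other groups, at -0.19 from young (SE 0.09, limma adjusted p = 0.28), and impaired lay at -0.22 from unimpaired rats (SE 0.09, limma adjusted p = 0.25), so neither step passed on its own. Of the 6 unimpaired animals 4 had the same value of 6.00, animal 1 stood high at 6.42 and 1 animal stood low at 5.80. Averaged over both aged groups, Eif2b5 fell by 0.30 on the log2 scale (limma adjusted p = 0.016). A second probe set of the gene was below the filter, with group means of 2.94, 2.77 and 2.74 in young, unimpaired and impaired rats, so the result rests on 1 probe set.

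Eif2b4 (probe set 1386970_at) ranged from 8.07 to 8.40 in young rats with a median of 8.28, from 7.99 to 8.15 in aged unimpaired rats with a median of 8.05, and from 7.92 to 8.28 in aged impaired rats with a median of 8.02. The aged groups lay at the same height and the young above them. Of the 8 impaired animals 5, and of the 6 unimpaired animals 4, were lower than every young animal; young animal 5, at 8.07, stood apart from the other 8 young rats, which began at 8.24, and impaired animal 1 stood highest of its group at 8.28. The log2 difference from young was -0.23 (SE 0.05, 95% interval -0.33 to -0.13) in impaired rats, with a limma adjusted p of 0.0044, and -0.22 (SE 0.05, 95% interval -0.32 to -0.11) in unimpaired rats, with a limma adjusted p of 0.025. These are levels 1.17-fold and 1.16-fold lower. Between the aged groups the difference was -0.01, with an interval from -0.12 to 0.09. The call in unimpaired rats was lost without aged unimpaired animal 6 or animal 8, at limma adjusted p-values of 0.070 and 0.054, while the difference stayed at -0.20 and -0.21. It was also lost with the control-row gap as covariate (limma adjusted p = 0.051) and with no filter on dim probe sets (0.053).

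The other subunits showed no such fall. Eif2b1 had means of 7.57 ± 0.27, 7.65 ± 0.12 and 7.71 ± 0.25 (SD) in young, unimpaired and impaired rats, a difference of 0.14 in impaired against young with an interval of -0.09 to 0.37. Eif2b2 lay at 7.11 ± 0.05, 7.09 ± 0.11 and 7.15 ± 0.13, a difference of 0.03 with an interval of -0.07 to 0.13. Eif2b3 lay at 6.33 ± 0.09, 6.35 ± 0.16 and 6.27 ± 0.29, a difference of -0.07 with an interval of -0.26 to 0.13. The intervals of Eif2b1 and Eif2b2 do not reach the difference found for Eif2b4, while that of Eif2b3 does. Correlations were taken on each animal's deviation from its group mean, so differences between groups were removed. Over the 23 animals these deviations of Eif2b4 and Eif2b5 did not vary together. Pearson's r was 0.057 and Spearman's rho 0.019 (permutation p = 0.80 and 0.93). Without the 2 animals whose Eif2b4 deviations lay farthest from their median, r was -0.077. Adjusted over the 36 relations computed between probe sets, these p-values were 0.95 and 0.995.

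**Figure D2:**
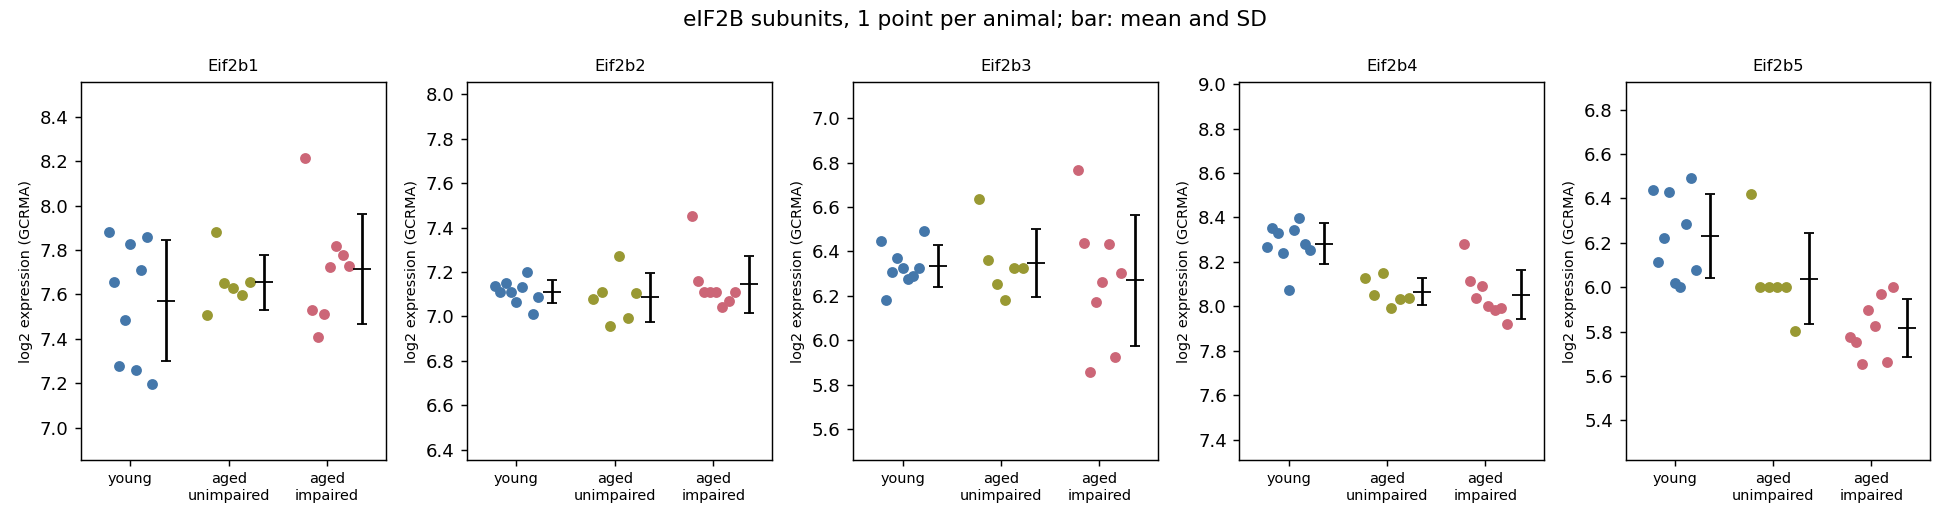
Log2 expression (vertical axis, GCRMA; the same span of 1.7 in each panel) of the 5 subunit genes of eIF2B in young, aged unimpaired and aged impaired rats, 1 point per animal, with the mean and SD at the right of each group. Both aged groups lie below most young animals for Eif2b4, impaired rats lie lowest for Eif2b5 with means of 6.23, 6.04 and 5.82, and the groups overlap for Eif2b1, Eif2b2 and Eif2b3.

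The start regions of the 3 genes that fell in impaired rats are given here because these genes moved in the same direction. The sequences are those of RefSeq on the rat assembly GRCr8, from 220 bases before to 30 bases after the annotated start, on the strand of the gene. They lie at chr6:30903019-30903268 on the plus strand for Eif2b4, at chr11:93908771-93909020 on the minus strand for Eif2b5 and at chr8:129080938-129081187 on the plus strand for Eif1b. Capitals mark matches, on either strand, to 5 motifs. The letters searched were CCAAT for the CCAAT box, GGGCGG for the GC box, CCGGAAG for the site of ETS family factors, TGACGTCA for the cAMP response element and CACGTG for the E-box.
Eif2b4: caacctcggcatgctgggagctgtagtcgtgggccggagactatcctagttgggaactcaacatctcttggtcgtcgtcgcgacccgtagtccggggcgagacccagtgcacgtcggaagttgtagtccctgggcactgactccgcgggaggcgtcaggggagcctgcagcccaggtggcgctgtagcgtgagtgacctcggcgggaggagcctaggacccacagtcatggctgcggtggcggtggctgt
Eif2b5: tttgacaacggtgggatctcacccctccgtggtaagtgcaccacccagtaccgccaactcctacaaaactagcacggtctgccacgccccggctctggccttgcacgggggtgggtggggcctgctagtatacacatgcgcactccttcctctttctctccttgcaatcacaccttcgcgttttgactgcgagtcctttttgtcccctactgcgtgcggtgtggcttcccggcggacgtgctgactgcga
Eif1b: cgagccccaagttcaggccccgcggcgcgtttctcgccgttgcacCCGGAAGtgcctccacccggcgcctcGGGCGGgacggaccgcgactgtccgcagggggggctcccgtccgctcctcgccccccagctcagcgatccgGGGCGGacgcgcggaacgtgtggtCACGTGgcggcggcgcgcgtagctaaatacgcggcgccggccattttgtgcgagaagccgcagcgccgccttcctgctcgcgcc
The pieces of Eif2b4 and Eif2b5 held none of these letters, and that of Eif1b held 4 matches that do not overlap, 1 ETS, 2 GC boxes and 1 E-box. Of the other subunit genes, the full window of 300 bases (250 before to 50 after the start) held 2 of the 5 motifs in Eif2b1, 3 in Eif2b2 and 0 in Eif2b3. Windows were found for 51 of the 55 tested genes, in 53 entries. The GC box was in 36 of these 53 (67.9%) and in 33.1% of all 33469 windows in the table. An ETS match was in 19 (35.8%, all windows 8.75%), an E-box in 10 (18.9%, all 6.42%) and a CCAAT box in 17 (32.1%, all 37.5%). The cAMP response element was in 1 (1.89%, all 1.83%). The table of all windows covers genes of every kind and base composition, and a match is a description of letters only.

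Among the factors of start codon selection, Eif1b fell in aged impaired rats. Eif1b is a close relative of Eif1, the factor that keeps the scanning ribosome from stopping at wrong codons; Eif1 itself and Eif5 had no probe set of a single gene here. Eif1b (probe set 1373411_at) had a lowest, median and highest value of 10.98, 11.09 and 11.22 in young, of 10.83, 11.03 and 11.15 in unimpaired and of 10.72, 10.90 and 11.11 in impaired rats. Of the 8 impaired animals 6 were below every young animal, and the other 2, among them animal 1 at 11.11, lay within the young range. The log2 difference was -0.20 (SE 0.05, 95% interval -0.30 to -0.09) in impaired against young, with a limma adjusted p of 0.019. It was -0.08 (SE 0.06, limma adjusted p = 0.52) in unimpaired against young and -0.12 (SE 0.06, limma adjusted p = 0.31) between the aged groups. Since the factor is close in sequence to Eif1, probes of one may read RNA of the other, and the files do not allow this to be checked.

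Eif1a, which codes for eIF1A, the partner of eIF1 in scanning, had 4 tested probe sets that shared their sign in each of the 4 comparisons but differed in size. The probe set 1384147_at rose in aged unimpaired rats: it ranged from 6.99 to 7.26 in young (median 7.12), from 7.12 to 7.59 in unimpaired (median 7.41) and from 7.07 to 7.22 in impaired rats (median 7.12). Of the 6 unimpaired animals 4 were above every young animal, while the other 2 sat among the young. The log2 difference was 0.24 (SE 0.06, limma adjusted p = 0.040) in unimpaired against young, -0.01 in impaired against young, and -0.25 between the aged groups (SE 0.06, limma adjusted p = 0.058). The call against young was lost when any of aged unimpaired animals 1, 4, 7 and 8 or young animals 1, 2, 3, 4, 6, 7 and 9 was left out, where the largest limma adjusted p was 0.105 and the smallest difference 0.19. With the control-row gap as covariate the limma adjusted p was 0.060.

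The probe set 1397892_at of Eif1a fell in impaired against unimpaired rats. It ranged from 5.42 to 5.76 in young (median 5.61), from 5.58 to 5.99 in unimpaired (median 5.83) and from 5.29 to 5.66 in impaired rats (median 5.60). Of the 8 impaired animals 4 lay below every unimpaired animal. The log2 difference between the aged groups was -0.30 (SE 0.07, 95% interval -0.44 to -0.15, limma adjusted p = 0.049), with 0.18 in unimpaired against young (SE 0.07, limma adjusted p = 0.18) and -0.12 in impaired against young (SE 0.06, limma adjusted p = 0.25). It lay close to the threshold and was kept in 6 of the 23 fits that each left out 1 animal, over which the limma adjusted p ran from 0.028 to 0.13. With the control-row gap as covariate the difference was -0.33 and the limma adjusted p was 0.40. Another probe set, 1395840_at, had differences of 0.23 (limma adjusted p = 0.27) in unimpaired against young and -0.28 (limma adjusted p = 0.20) between the aged groups. The brightest, 1374180_at, had 0.06 and -0.06, with intervals of -0.04 to 0.15 and -0.16 to 0.03 that do not reach the differences of the other 3. Of the 6 pairs among these probe sets, Pearson's r of the deviations from the group means ran from -0.09 to 0.398 across the 23 animals.

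**Figure D3:**
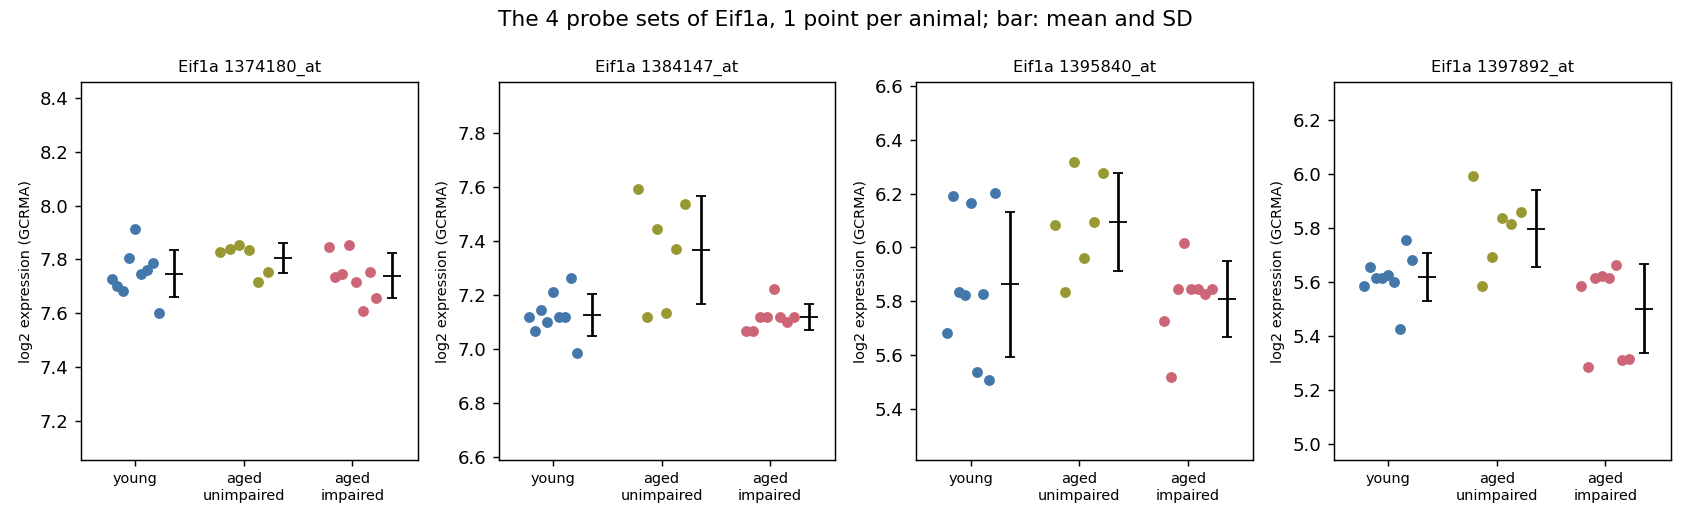
Log2 expression (vertical axis, GCRMA; the same span of 1.4 in each panel) of the 4 probe sets of Eif1a in young, aged unimpaired and aged impaired rats, 1 point per animal, with the mean and SD at the right of each group. The unimpaired group stands above the impaired one in the mean of every panel, least in the leftmost, the brightest probe set. The animals of these groups overlap in each panel.

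The other genes of this role did not pass. Eif1ax, the X-linked gene for eIF1A, had a difference of -0.07 in impaired against young and -0.04 in unimpaired against young (SE 0.04 each). Eif1ad, which codes for a protein with an eIF1A-like domain, had -0.07 and -0.10. The brightest probe set of Eif5b, whose product joins the ribosomal subunits at the start codon, had 0.05 and 0.10, with limma adjusted p-values of 0.43 and 0.20, and its dimmest, 1396191_at, had 0.26 and 0.14, with 0.20 and 0.65. Its other probe set, 1395237_at, had 0.215 in impaired and -0.19 in unimpaired against young, with limma adjusted p-values of 0.26 and 0.50.

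None of the 6 genes of eIF2 and initiator tRNA delivery passed limma in any of the 4 comparisons, with unadjusted p-values of at most 0.05 for 2 in impaired against young, 1 in unimpaired against young and 1 between the aged groups. Eif2s1, the alpha subunit that carries the regulated phosphorylation site, had means of 9.41 ± 0.07, 9.33 ± 0.04 and 9.31 ± 0.09 (SD) in young, unimpaired and impaired rats. Its log2 difference in impaired against young was -0.10 (SE 0.04, limma adjusted p = 0.095), and 5 of the 8 impaired animals lay below every young animal. It passed when aged impaired animal 1 was left out and with the control-row gap as covariate. Eif2s3, the gamma subunit that binds GTP and the tRNA, had 0.14 (SE 0.05, limma adjusted p = 0.087) in impaired and 0.13 (SE 0.06, limma adjusted p = 0.23) in unimpaired against young, with every impaired animal inside the range of the young. It passed in impaired against young with quantile normalization and without young animal 7. Eif2s2, the beta subunit, had 0.05 and 0.04. Eif2s3y, the Y-linked copy of the gamma subunit, had -0.02 and 0.12. Eif2a, an alternative carrier of the initiator tRNA, had -0.01 and 0.08. Eif2d had 0.00 and 0.01, but 18 of its 23 arrays shared 1 value, so small differences cannot be read from it.

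The 4 kinases of eIF2 alpha did not pass either (by brightest probe set, 1, 1 and 0 at an unadjusted p of at most 0.05 in the same order). Eif2ak2 (PKR), which responds to double-stranded RNA, had the largest differences from young among the brightest probe sets of the 4. Its values ran from 5.51 to 5.71 in young, from 5.71 to 6.22 in unimpaired and from 5.64 to 6.14 in impaired rats, so the aged animals lay above the middle of the young range, with overlap. The log2 difference was 0.28 (SE 0.08, limma adjusted p = 0.090) in unimpaired and 0.17 (SE 0.08, limma adjusted p = 0.17) in impaired against young, and 0.22 (limma adjusted p = 0.052) for the mean of both aged groups. This last value passed under 10 of 34 alternatives, and 10 of the 23 arrays shared 1 value. Eif2ak3 (PERK), the kinase of the endoplasmic reticulum, had means of 6.75 ± 0.13, 6.88 ± 0.16 and 6.84 ± 0.15 (SD) in young, unimpaired and impaired rats, with differences of 0.13 and 0.09 from young. Eif2ak1 (HRI), the haem-regulated kinase, had 9.18 ± 0.06, 9.25 ± 0.10 and 9.22 ± 0.15, with differences of 0.07 and 0.04. Its dimmer probe set 1387272_at had the largest difference of any kinase probe set between the aged groups, -0.33 (SE 0.11, limma adjusted p = 0.15), where the brighter one had -0.04. In impaired against young it had -0.21 (SE 0.10, limma adjusted p = 0.20), where the brighter one had 0.04. Eif2ak4 (GCN2), which senses uncharged tRNAs, had 19 arrays at 1 value, and its mean was 6.75 in young, 6.74 in unimpaired and 6.75 in impaired rats.

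Of the 11 tested genes of eIF3, the large scaffold that joins the ribosome to eIF4F, none passed in any comparison. Their log2 differences by brightest probe set ran from -0.12 (Eif3j) to 0.09 (Eif3a) in impaired against young and from -0.12 (Eif3c) to 0.09 (Eif3f) in unimpaired against young, with medians of -0.03 and 0.005. Eif3j, the loosely bound subunit at the decoding site, was the only one with an unadjusted p of at most 0.05 in impaired against young rats (-0.12, SE 0.04, limma adjusted p = 0.0999), where its dimmer probe set 1395199_at had -0.04. By brightest probe set none had one in the other 2 pairwise comparisons. Eif3h had differences of 0.02 in both aged groups, with intervals of -0.08 to 0.12 and -0.09 to 0.12. The spread between impaired animals was wide for some subunits: Eif3l had an SD of 0.15 in impaired and 0.05 in young rats by its brightest probe set (its other, 1390880_at, differed by 0.14 in impaired against young, limma adjusted p = 0.29), and Eif3m 0.18 and 0.05. Eif3e and Eif3g had no probe set of a single gene.

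Among the factors of mRNA recruitment, none of the 10 tested genes of eIF4F and its helpers passed limma in the 4 comparisons, with 2, 3 and 2 at an unadjusted p of at most 0.05. Eif4e, the cap-binding protein, had means of 9.97 ± 0.03, 9.94 ± 0.05 and 9.93 ± 0.05 (SD) in young, unimpaired and impaired rats, with 8 arrays at 1 value. Eif4g1, the main scaffold, had 9.91 ± 0.08, 9.77 ± 0.08 and 9.81 ± 0.11. Its differences from young were -0.14 (SE 0.05, limma adjusted p = 0.15) in unimpaired and -0.09 (SE 0.05, limma adjusted p = 0.19) in impaired rats, and the latter passed without aged impaired animal 1. Eif4g3, a second scaffold, was at -0.15 in impaired against young (SE 0.06, limma adjusted p = 0.093) and at 0.00 in unimpaired, with 5 of 8 impaired animals below every young animal. Eif4g2, which codes for the scaffold DAP5 that does not bind eIF4E, had -0.04 and 0.01 by its brightest of 3 probe sets, and the others had -0.05 and -0.06 (1388359_at) and -0.12 and -0.07 (1397520_at).

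The helicase genes were close between groups as well. Eif4a1, the general eIF4A, had means of 10.60 ± 0.11, 10.47 ± 0.07 and 10.61 ± 0.13 (SD) in young, unimpaired and impaired rats, with a difference of -0.13 in unimpaired against young (SE 0.06, limma adjusted p = 0.25) and 0.14 between the aged groups (SE 0.06, limma adjusted p = 0.24). Eif4a2, the form abundant in brain, had 12.61 ± 0.08, 12.57 ± 0.03 and 12.59 ± 0.06, and the intervals of its differences from young ran from -0.09 to 0.05 in impaired and from -0.12 to 0.03 in unimpaired rats; its dimmer probe set 1397697_at had 0.06 and 0.10 (SE 0.11 and 0.12). Eif4a3, the helicase of the exon junction complex, had 0.01 and 0.02. Eif4b and Eif4h, which stimulate eIF4A, had 0.02 and -0.06 in impaired against young rats, and the dimmer probe set 1372124_at of Eif4b had 0.10. The dimmer probe set 1397675_at of Eif4h had 0.08 in impaired and -0.28 in unimpaired against young (limma adjusted p = 0.66 and 0.20). The brightest of Eif4h had -0.08 in unimpaired against young. Eif4e3, a divergent cap-binding relative, had -0.09 and -0.25, the latter with a limma adjusted p of 0.26. Its dimmer probe set 1390396_at had -0.31 (SE 0.13, limma adjusted p = 0.14) and -0.12. Eif4e2 was below the filter.

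The eIF4E-binding proteins hold eIF4E away from eIF4G until they are phosphorylated by mTORC1. Eif4ebp2, the main form in brain, had a lowest, median and highest value of 7.70, 7.82 and 8.09 in young, of 7.66, 7.83 and 8.19 in unimpaired and of 6.26, 7.67 and 7.80 in impaired rats. Aged impaired animal 2, at 6.26, stood far below the others of its group, which began at 7.42. The log2 difference was -0.37 (SE 0.15, limma adjusted p = 0.12) in impaired against young and -0.39 (SE 0.17, limma adjusted p = 0.27) between the aged groups. Without that animal they were -0.20 and -0.21, and neither passed in any of 35 alternatives, where the lowest adjusted p was 0.094 and 0.22. Eif4ebp3 had 0.11 in both aged groups against young (SE 0.05, limma adjusted p = 0.15 and 0.29), with 11 arrays at 1 value. Eif4enif1, the transporter that takes eIF4E into the nucleus, had -0.01 and 0.01. Eif4ebp1 lay near the floor of the scale at 2.22 in each group and was not tested.

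Eif5a, Eif5a2 and Eif6 did not pass in any comparison, with 0, 1 and 0 at an unadjusted p of at most 0.05. Eif5a, the factor that carries the amino acid hypusine and helps the ribosome through stalling sequences, had means of 11.49 ± 0.06, 11.37 ± 0.13 and 11.48 ± 0.08 (SD) in young, unimpaired and impaired rats, with 4 of the 6 unimpaired animals below every young animal (-0.12, SE 0.05, limma adjusted p = 0.22). Eif6, which keeps the ribosomal subunits apart, had 9.31 ± 0.04, 9.34 ± 0.09 and 9.30 ± 0.09. Eif5a2, a close relative of Eif5a, had -0.03 and 0.05 from young in impaired and unimpaired rats by its brightest probe set, and -0.05 and 0.00 by the other, 1383867_at. For Eif6 the intervals of the differences from young were -0.09 to 0.07 in impaired and -0.06 to 0.11 in unimpaired rats.

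No elongation factor passed limma in any of the 4 comparisons, with 0, 2 and 0 of the 7 tested eEF1 genes at an unadjusted p of at most 0.05. Eef1a1, the widely expressed form of eEF1A, had a lowest, median and highest value of 13.89, 14.02 and 14.07 in young, of 14.04, 14.09 and 14.14 in unimpaired and of 13.98, 14.05 and 14.10 in impaired rats. Its differences from young were 0.09 (SE 0.03, limma adjusted p = 0.15) in unimpaired and 0.05 (SE 0.03, limma adjusted p = 0.35) in impaired rats, and its other tested probe set, 1370109_s_at, had 0.05 and 0.04 (SE 0.04 each). Eef1a2, the form of neurons and muscle, lay on the other side, with 12.68, 12.81 and 12.98 in young, 12.52, 12.69 and 12.76 in unimpaired and 12.68, 12.72 and 12.87 in impaired rats. Of the 6 unimpaired animals 3 were below every young one. Its differences were -0.16 (SE 0.05, limma adjusted p = 0.089) in unimpaired and -0.09 (SE 0.04, limma adjusted p = 0.22) in impaired rats. For the mean of both aged groups Eef1a2 was at -0.12 (SE 0.04, limma adjusted p = 0.059), and this passed under 8 of 34 alternatives, while Eef1a1 was at 0.07 (SE 0.03, limma adjusted p = 0.12) and passed under none.

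The subunits that reload eEF1A with GTP did not pass. Eef1b2 had 0.07 in impaired and 0.01 in unimpaired against young (SE 0.05 and 0.06), Eef1g had 0.05 and 0.08 (SE 0.04 and 0.05), and Eef1d had 0.04 and -0.03 (SE 0.06 each). Eef1e1, a component of the multi-tRNA synthetase complex, had -0.09 and -0.08 (SE 0.05 each). Eef1akmt1, a lysine methyltransferase of eEF1A, had 0.02 and 0.06 (SE 0.10 and 0.11). Eef2 had means of 12.56 ± 0.09, 12.50 ± 0.05 and 12.50 ± 0.08 (SD) in young, unimpaired and impaired rats, with differences of -0.05 and -0.06 whose intervals ran from -0.14 to 0.04 and from -0.14 to 0.03. All 4 probe sets of its kinase Eef2k were below the filter. The brightest had means of 3.58, 3.21 and 3.73, and it reached a log2 value of 4 on 4 of the 23 arrays, so no statement on Eef2k can be made from this array. Eef1akmt2 and Eef1akmt4 were below the filter too.

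Of the 55 tested genes, 14 had more than 1 tested probe set. Between the aged groups the probe sets of 6 of these lay on both sides of zero, and the spread within a gene had a median of 0.18 and reached 0.45. Dimmer probe sets of Eif3a, Eif3c, Eif4h and Eif5b had positive differences over 0.3 in impaired against unimpaired rats that did not pass, where the brightest of each gene lay within 0.1 of zero. Eif3a 1379485_at ranged from 3.91 to 5.17 in unimpaired and from 4.48 to 5.23 in impaired rats (0.43, SE 0.19, limma adjusted p = 0.27), while the brightest probe set of Eif3a had 0.08. Eif3c 1397674_at ranged from 7.03 to 8.00 in unimpaired and from 8.00 to 8.46 in impaired rats (0.49, SE 0.14, limma adjusted p = 0.079), while the brightest probe set of Eif3c had 0.06. On 1397674_at 7 of the 23 arrays shared 1 value. Eif4h 1397675_at ranged from 8.39 to 9.07 and from 8.97 to 9.20 (0.36, SE 0.12, limma adjusted p = 0.13), while the brightest of Eif4h had 0.02. Eif5b 1395237_at ranged from 7.54 to 8.28 and from 7.91 to 8.65 (0.40, SE 0.13, limma adjusted p = 0.14), while the brightest of Eif5b had -0.05. In each the unimpaired animals reached lower values and the ranges met or overlapped. Those of Eif3c, Eif4h and Eif5b passed when aged unimpaired animal 7 was left out, and that of Eif4h also without young animal 7, while that of Eif3a passed in no alternative. Pearson's r was taken across animals on deviations from the group means. Over 23 pairs of probe sets of the same gene its median was 0.167, and 4 had an adjusted permutation p of at most 0.05. Between the brightest and the dimmer probe set named here, r was 0.646 for Eif3c, 0.328 for Eif3a, 0.015 for Eif4h and 0.065 for Eif5b. Among the dimmer ones of Eif3c, Eif4h and Eif5b it ran from 0.348 to 0.614. Of these 3 pairs 1 passed by Pearson's r (adjusted permutation p of 0.0175 to 0.273). None passed by Spearman's rho (adjusted permutation p of 0.127 to 0.288). The dimmer probe set of Eif3a was not correlated with them.

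**Figure D4:**
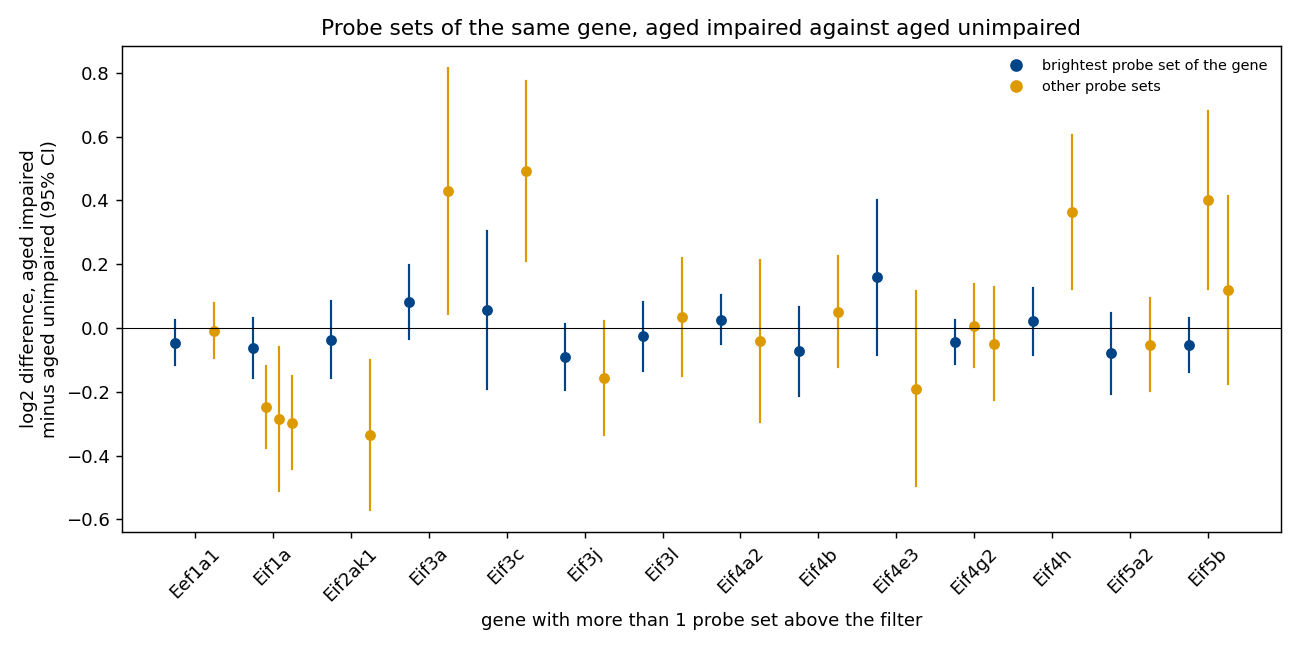
Log2 difference of aged impaired from aged unimpaired rats with 95% confidence intervals (vertical axis) for every tested probe set of the 14 genes with more than 1 (horizontal axis), the brightest of each gene in blue and the others in orange. Dimmer probe sets of Eif3a, Eif3c, Eif4h and Eif5b lie at 0.43, 0.49, 0.36 and 0.40 where the brightest lie at 0.08, 0.06, 0.02 and -0.05, and 3 of the 4 probe sets of Eif1a lie well below the brightest.

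Other genes of the same pathways, such as mTORC1 and its regulators, poly(A)-binding proteins, the enzymes that make hypusine, release factors and mitochondrial translation factors, were listed beside the factors. Of 49 listed, 45 had a probe set of a single gene and 43 were tested. Each was read by its brightest probe set only, and the alternatives were not examined for these genes. In aged impaired against young, 2 fell and 0 rose, which is 4.65% beside 10.2% of all genes called by their brightest probe set: Dohh, the hydroxylase that completes hypusine on eIF5A (-0.20, SE 0.05, limma adjusted p = 0.022), and Tufm, the mitochondrial elongation factor Tu (-0.15, SE 0.04, limma adjusted p = 0.029). Dhps, the enzyme before Dohh, had 0.01. In aged unimpaired against young 1 rose and 0 fell, 2.33% beside 2.03% of all genes. The gene was Paip1, a partner of the poly(A)-binding protein that stimulates initiation (0.18, SE 0.04, limma adjusted p = 0.028). Paip1 had 0.04 in impaired against young. Its difference of impaired from unimpaired rats, -0.15 (SE 0.04, limma adjusted p = 0.10), did not pass. Between the aged groups limma called 0 of the 43, beside 0.435% of all genes, and 2 had an unadjusted p of at most 0.05. For the mean of both aged groups Tsc1 rose (0.16, SE 0.04, limma adjusted p = 0.029) and Tsc2 fell (-0.14, SE 0.04, limma adjusted p = 0.030), which code for the 2 partners of the complex that restrains mTORC1; these 2 are 4.65% of the list, beside 7.53% of all genes. Mtor itself had -0.07 in both aged groups (limma adjusted p = 0.16 in impaired and 0.27 in unimpaired). Atf4, the transcription factor whose translation rises when eIF2B is inhibited, had -0.10 in impaired and -0.07 in unimpaired rats (limma adjusted p = 0.075 and 0.36).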

How the data were processed

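One array per animal was measured. The authors deposited log2 values made with GCRMA, per the submitters' processing notes. The GCRMA version is not given in the sources used here. GCRMA corrects background by probe sequence, makes arrays alike in distribution and summarises each probe set, and it can give several arrays exactly the same value: 33 of the 73 tested members and 65.4% of all tested probe sets held a value shared by at least 2 arrays. Array values are not read counts, and the number of arrays limits the precision.

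Group means were estimated in 1 linear model over the 23 arrays and 14647 probe sets with limma 3.58.1 in R 4.3.3 (lmFit, eBayes, 20 residual and 2.35 prior degrees of freedom), with two-sided moderated tests and Benjamini-Hochberg adjustment over all tested probe sets. Group values are means with SD, and a difference is the first-named group less the other, with its standard error (SE). Data were simulated for aged impaired against young over 14647 probe sets, with independent normal noise and changes in 50 probe sets at each size. The fit recovered 28% of changes of 0.2, 86% of 0.4 and 98% of 0.8 on the log2 scale, with 15 false calls. In the data 1429 probe sets were called in this comparison, so the adjusted threshold differed and these shares do not give the recovery there. The members and gene lists were chosen with earlier results of these data known. Named were a set list of key factors, whatever their test, and every called member up to 10 per comparison, each gene by its brightest probe set with its other tested probe sets beside it; genes were ordered by role, and further members of a role are given to complete it. In addition, Eif2ak1 1387272_at and dimmer probe sets of Eif3a, Eif3c, Eif4h and Eif5b were singled out after their values were seen. Symbols come from the platform's annotation, and all 93 matched the GRCr8 gene table. Another 5 probe sets name a factor among several genes and were not used. Correlations between probe sets were taken on deviations from the group means and used 100000 permutations. Replicate numbers recur across groups, and the sample titles do not say whether they pair the animals. Over 20 pairs of the same number the correlation of deviations from the group means ran from -0.139 to 0.132, with 2 over 0.1. Such values give no sign of pairing but cannot exclude it. Alternatives were other filters, a floor, centring, quantile normalization, array weights, the replicate block and the groups compared alone. Further ones were the control-row gap as covariate, trend and robust, 1 probe set per gene, and each animal left out. Leaving out impaired arrays 1 and 2 together was chosen after seeing the data. Of the 23 arrays, aged impaired array 1 had the highest mean log2 value over the tested members, 8.90. Aged impaired array 2 had the lowest mean correlation with the other arrays, 0.9959. The part of these array-wide traits in the values of single genes of these 2 animals was not tested.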

Additional observations from a re-analysis of the deposited data

Results flagged for a closer look

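In groups of 6 to 9 animals, the gap of the highest or lowest animal to the nearest other, as a share of the group's range, was set against Dixon's 95% critical value. Of 60 groups over 20 probe sets 7 stood out. Chance gives about 1 in 20 for normal values without ties, which many of these probe sets do not have. The most common value was held by 8 arrays for Eif4e, 6 for Eif1a 1384147_at, 5 for Eif4ebp2 and 4 for Eif2b5. The 7 can therefore not be set against that rate. Eif4ebp2 of aged impaired animal 2 had a share of 0.752 (6.26, the next at 7.42). Eif2b5 of aged unimpaired animal 1 had 0.679 (6.42, the next at 6.00), and Eif2b4 of young animal 5 had 0.522 (8.07, the next at 8.24). Eif1a 1384147_at of aged impaired animal 5 had 0.66 (7.22, the next at 7.12), and Eif4e of young animal 2 had 0.68 (10.05, the next at 9.98). Eif2ak4 had 0.637 in aged unimpaired animal 4 and 1 in aged impaired animal 7, in a probe set where 19 arrays share 1 value, so that the latter is a gap of 6.74 to 6.75.

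Eif1a 1397892_at differed between the aged groups by -0.2968 on the log2 scale (limma adjusted p = 0.049). The effect of age in impaired minus that in unimpaired rats is this same comparison, since the young group cancels. The call was kept in 11 of 34 alternatives. Neither difference from young passed (limma adjusted p = 0.25 in impaired and 0.18 in unimpaired rats).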

How the results depend on the processing

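Eif2b4, Eif2b5 and Eif1b in aged impaired against young passed with the same sign in all 35 alternatives run, with differences from -0.28 to -0.21, -0.44 to -0.38 and -0.24 to -0.17, and Eif2b4 and Eif2b5 in the mean of both aged groups in all 34. Eif2b4 in unimpaired rats kept its call in 30 of 35, Eif1a 1384147_at in 18 of 34 and Eif1a 1397892_at in 11 of 34, and no named call reversed. Of the counts of members called, the 2 in unimpaired against young became 0 with no filter and 0 with the control-row gap as covariate. With only the groups compared that count was 1. The 1 between the aged groups became 0 with no filter, the gap as covariate, trend and robust, or only the groups compared. It also became 0 without impaired arrays 1 and 2 together, and it was 2 with array weights. With 1 probe set per gene these 2 counts were 1 and 0. The called probe sets of Eif1a are not its brightest and were not tested there, so their loss was fixed by the setting. The 2 for the mean of both aged groups became 4 with quantile normalization, 6 with array weights and 6 without impaired arrays 1 and 2 together. The replicate block, whose numbers gave no sign of pairing animals, was fitted too. It called 3 members in impaired against young, 0 in unimpaired against young, 0 between the aged groups and 2 for the mean. Of 23 arrays, 3 correlated best with their own number. Leaving out 1 animal gave 3 to 5 (5 without impaired animal 1), 0 to 2 (0 without unimpaired animal 8), 0 to 5 (5 without unimpaired animal 7) and 2 to 6 (6 without impaired animal 1) in the same order. Over all probe sets, the 114 called between the aged groups fell to 0 under the block, the gap and only the groups compared, and the 1429 in impaired against young were 768 with no filter. The causes of these changes were not tested. In the simulation for impaired against young, which changed far fewer probe sets than the data called, most differences of 0.2 were missed.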
